A study of Drosophila melanogaster with 4 samples.

Results

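H3K9me1 clusters on the unplaced scaffolds U of the Drosophila melanogaster genome are described here. Histone H3 monomethylated at lysine 9 (H3K9me1) was mapped by chromatin immunoprecipitation and sequencing (ChIP-seq). A cluster is a region that the authors listed as significantly enriched, and the members are all listed clusters whose sequence name is U. There were 151 of 5480 clusters in replicate 1, 206 of 6062 in replicate 2 and 496 of 13114 in the combined list that the authors made for the replicate set. U is 10049037 bp long per the file headers, in FlyBase release 5. Positions are counted from 1.

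In flies, methylation of H3 lysine 9 is laid down stepwise by histone methyltransferases, and the monomethyl state is the first step towards the dimethyl and trimethyl marks. These higher states mark heterochromatin, where they are bound by the chromodomain protein HP1a. U gathers scaffolds that could not be assigned to a chromosome, many of them repeat-rich, joined under 1 name. Their order along U is therefore not an order along a chromosome, and a distance that crosses a join is not a distance in the genome. Reads from repeats often match several places, which limits where they can be assigned.

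All samples were whole Oregon-R embryos, wild type in genotype, at the 14-16 hr stage, so that all tissues are mixed. There were 2 ChIP samples, for which the H3K9me1 antibody came from a new lot, and 2 input samples of chromatin without precipitation. The labels pair each input, as control, with the ChIP list of its number. They do not tell whether the replicates are separate collections of embryos, and the difference between replicates may therefore be technical only. Input values and read counts were not analysed here. Depth is thus unknown, no counting interval is given, and cover outside the clusters is not shown to be free of the mark.

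Each cluster has a deposited score whose scale is not stated. On U, 2 raised to the score, divided by 1 constant per list (0.982, 0.978 and 0.980), gave a ratio of whole numbers for 97.4%, 97.1% and 93.1% of the clusters of replicate 1, replicate 2 and the combined list. The test allowed denominators up to 500 and a relative error of 1e-11, and 0% passed after random rescaling. The score is therefore read as a log2 ratio, and a fold below is 2 raised to the score. The whole numbers are not taken as read counts.

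H3K9me1 clusters were sparse on U. They covered 3.26% of U in replicate 1 and 5.36% in replicate 2, a mean of 4.31% ± 1.48 (SD, n = 2). The other 12 sequences together were covered at 9.02% and 10.8%, and the 6 Het sequences (scaffolds assigned to the heterochromatin of a chromosome) together at 7.51% and 11.8%. U was thus below both in each replicate, at 0.428 ± 0.095 of the cover of the other sequences (SD, n = 2). U ranked 12 of 13 sequences by cover in each of the 3 lists, ahead of 2LHet. The lower cover came with fewer clusters: U held 15.0 and 20.5 clusters per Mb, against 41.1 and 45.2 on the other sequences. The length of assembly gaps and unmappable repeats in U was not measured here, and such bases count as uncovered.

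Widths on U were close to those elsewhere in the replicates. The median was 1833 bp in replicate 1 and 2057 bp in replicate 2, against 1861 bp and 1950 bp on the other sequences. U was narrower in replicate 1 and wider in replicate 2, so the difference of 39.5 bp ± 95.5 (SD, n = 2) lay within the spread. The central 50% of U clusters spanned 1478 to 2510 bp in replicate 1 and 1601 to 2892 bp in replicate 2. The narrowest were 1302 bp and 1305 bp and the widest 8308 bp and 12996 bp. In the combined list the median width on U was 1687 bp, the lowest of the 13 sequences, against 1858 bp on the other sequences.

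Scores on U were higher and spread more widely than elsewhere. The median score was 0.86 in replicate 1 and 0.90 in replicate 2 (0.88 ± 0.03, SD, n = 2), a fold of 1.82 and 1.86. On the other sequences the medians were 0.74 and 0.70, so U lay higher by 0.16 ± 0.05 (SD, n = 2) and in both replicates. The interquartile range of score was 0.43 and 0.51 on U, against 0.17 and 0.17 on the other sequences. The low ends were similar: 5% of U clusters scored under 0.56 and 0.54, against 0.56 and 0.51 elsewhere. The upper ends were not, since 5% of U clusters scored above 1.83 and 1.84, against 0.99 and 0.97 elsewhere. In the combined list the U median was 0.83 against 0.50. YHet had a higher median score than U in all 3 lists (1.43, 1.21 and 0.97), on 6, 12 and 17 clusters.

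**Figure D1:**
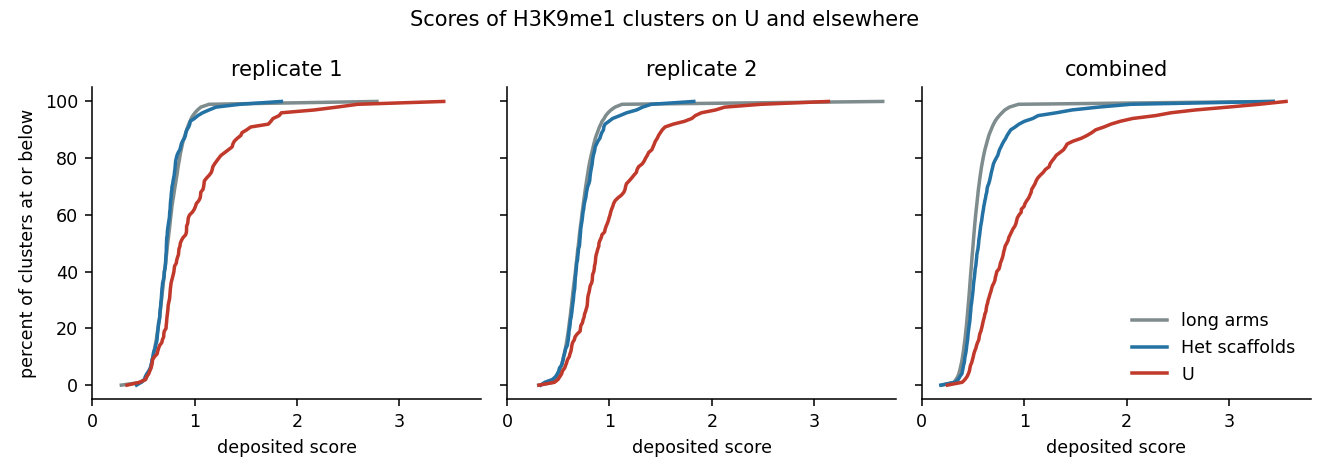
Cumulative share of clusters (percent, y axis) by deposited score (x axis) on U, the 6 sets of Het scaffolds and the 5 long arms, 1 panel per list. The U curve runs far to the right in its upper range, while at the low end it starts with the others in the replicates and above them in score in the combined list, with medians of 0.86, 0.90 and 0.83 on U.

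The high-score tail was set at the 95th percentile of score of each whole list (1.004, 0.997 and 0.82). By construction 5%, 5.01% and 5% of all clusters of replicate 1, replicate 2 and the combined list lie there. On U 56 of 151 clusters did so in replicate 1 (37.1%), 84 of 206 in replicate 2 (40.8%) and 248 of 496 in the combined list (50.0%). Over the 2 replicates this was 38.9% ± 2.6 of U clusters, against 3.92% ± 0.24 of those on the other sequences and 6.52% ± 0.71 on the Het scaffolds (SD, n = 2). The pooled Het value hides YHet, which held larger shares than U at a score of 1 or more, near these limits. In replicates 1 and 2 they were 83.3% of 6 clusters and 66.7% of 12, against 37.7% and 40.8% on U. The other Het scaffolds lay below U in both replicates. U supplied 20.4% and 27.6% of the tail of the replicates with 151 of 5480 and 206 of 6062 clusters. The clusters nearest the limit on U scored 1.014 inside and 1.004 outside in replicate 1, and 1.004 inside and 0.997 outside in replicate 2. There was thus no break in score at the limit.

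Tail clusters on U were narrower than the bulk in replicate 1 and of nearly the same width in replicate 2. They had a median width of 1713 bp in replicate 1 and 2057 bp in replicate 2, against 1906 bp and 2068 bp in the bulk. On the other sequences pooled the tail was the wider class, at 2879 bp and 3463 bp against 1837 bp and 1932 bp. The Het scaffolds did not share this order in both replicates, with 1944 bp against 1826 bp in replicate 1 and 1824 bp against 2108 bp in replicate 2. Spearman's rho of score with width was 0.49 over 5329 clusters and 0.58 over 5856 off U, but -0.13 over 151 and 0.08 over 206 on U. In the combined list it was 0.40 over 12618 clusters off U and -0.34 over 496 on U. There the tail on U had a median width of 1356.5 bp and the bulk one of 1921 bp. The replicate coefficients run across clusters of 1 library, and each coefficient describes its own list. Tail clusters on U were also more isolated in replicates 1 and 2: 33.9% and 38.1% had another cluster within 5 kb, against 62.1% and 54.9% of the bulk.

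Replicate support was then asked for each cluster. Of the U clusters, 105 of 151 in replicate 1 (69.5%) touched a cluster of replicate 2 by at least 1 bp, against 66.5% of all clusters of that list. In replicate 2, 98 of 206 (47.6%) touched replicate 1, against 57.6% of its whole list. The mean was 58.6% ± 15.5 (SD, n = 2), and U lay above the other sequences in replicate 1 and below them in replicate 2. The difference from the other sequences was 3.1 points in replicate 1 and -10.3 in replicate 2, a mean of -3.6 ± 9.5 (SD, n = 2). In bases, 220110 bp of U lay in both replicates, which is 67.2% of what replicate 1 covered there and 40.9% of what replicate 2 covered. The Jaccard index (bases in both divided by bases in either) was 0.341 on U, 0.388 on the other sequences and 0.362 on the Het scaffolds. U stood in place 10 of 13 by this index.

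At the limit of the 95th percentile, tail clusters were less supported than the bulk on U and more supported on the other sequences pooled. Of the tail clusters on U, 26 of 56 in replicate 1 (46.4%) and 29 of 84 in replicate 2 (34.5%) touched the other replicate. Of the bulk, 79 of 95 (83.2%) and 69 of 122 (56.6%) did. Tail minus bulk was thus -36.7 and -22.0 percentage points on U, a mean of -29.4 ± 10.4 (SD, n = 2). On the long arms it was 16.7 and 22.6 points, with 81.8% and 80.1% of tail clusters touching the other replicate. The Het scaffolds went with U, at -23.1 and -37.9 points, on 19 and 28 tail clusters. Width went with support: touching clusters on U had median widths of 2045 bp and 2715 bp, and the others 1491 bp and 1765 bp. The part of width in the difference between tail and bulk was not tested.

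The U clusters were also put in 4 equal classes by score, and the highest class was the least supported in each replicate. In replicate 1 the shares touching replicate 2 were 86.8%, 84.2%, 65.8% and 40.5% from the lowest to the highest class. In replicate 2 the shares touching replicate 1 were 55.8%, 61.5%, 49.0% and 23.5%. On the other sequences pooled the shares went from 57.0% in the lowest class to 77.0% in the highest, and from 46.6% to 73.8%. The Het scaffolds did not share this steady rise. Their shares were 73.4%, 75.9%, 81.0% and 67.1% in replicate 1, where the highest class was also the least supported. In replicate 2 they were 48.0%, 51.0%, 63.0% and 50.5%. Among clusters of like score the order depended on the range. Under 0.75 U was the better supported, at 88.6% against 60.3% in replicate 1 and 55.1% against 51.1% in replicate 2. From 0.75 to 1 the shares were 78.0% on U against 73.1% in replicate 1, and 57.5% against 70.7% in replicate 2. From 1 to 1.5, 22 of 41 on U (53.7%) touched replicate 2 against 81.0% off U, and 27 of 61 (44.3%) touched replicate 1 against 74.1%. At 1.5 or more, few touched in either place. These were 5 of 16 and 2 of 23 on U, and 1 of 7 and 1 of 8 off U.

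**Figure D2:**
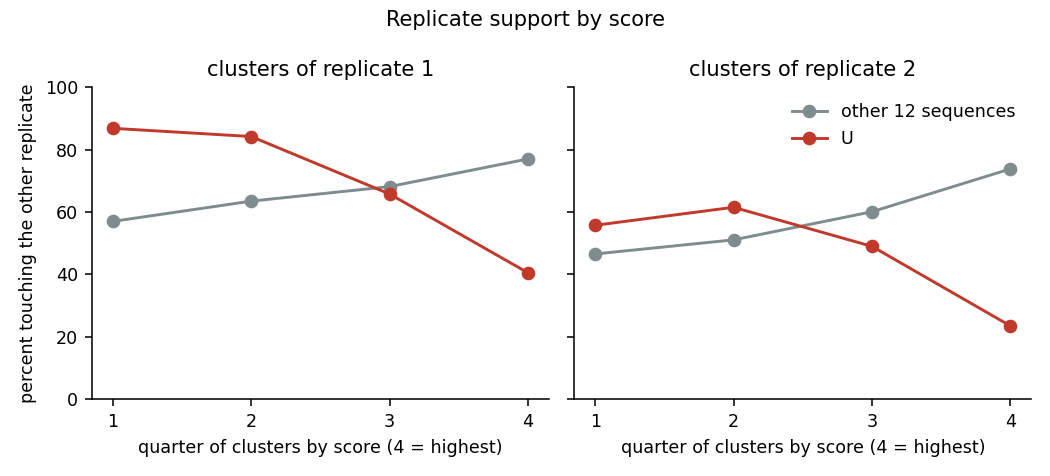
Percent of clusters that touch the other replicate (y axis) in 4 equal classes by score (x axis, 4 the highest), on U and on the other 12 sequences, 1 panel per replicate. The U line ends at 40.5% and 23.5% in the highest class, where the other sequences are at 77.0% and 73.8%.

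Contrasts of U with the other sequences were tested over the 2 ChIP samples by exact sign flips, a test that cannot go below p = 0.5 here (two-sided). Of 16 contrasts, 13 had the same sign in both replicates and gave this smallest exact p (adjusted p = 0.615, Benjamini-Hochberg over the 16), so this test could call no contrast, whatever its size. The other 3 differed in sign between the replicates (exact p = 1). These were median width, the share touching the other replicate, and that share in the bulk.

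The combined list is deposited for the replicate set, and how it was made is not known here, so the lists are not independent. It held 97.8% and 97.7% of the U bases of replicates 1 and 2, and 3 U clusters of each replicate lay outside it (1.99% and 1.46%, against 1.16% and 0.734% on the other sequences). Clusters covered 11.6% of U in this list, against 24.2% of the other sequences. Of its 496 clusters on U, 88 (17.7%) were touched by both replicates, against 23.8% of the whole combined list. A further 38 (7.66%, against 11.97% of the whole list) were touched by replicate 1 only. Replicate 2 alone touched 97 (19.6%, against 17.1%). The remaining 273 (55.0%) were touched by neither, against 47.2% of the whole list. Each replicate covered at least 50% of 54 U clusters (10.9%), against 16.1% of the whole list.

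Support and shape went together in this list. On U, the median score was 0.73 and the median width 4762 bp for clusters that both replicates touched. Those touched by neither were narrower, with a median of 1235 bp, and had a median score of 0.94, the highest of the 4 classes on U. On the other sequences the order of the scores was opposite, at 0.62 for both and 0.47 for neither. The replicate lists hold nothing under 1301 bp, and 163 U clusters of the combined list were narrower than that, of which 154 (94.5%) were touched by neither replicate, close to the 92.1% of all such narrow clusters. These 163 made up 32.9% of the U clusters, against 23.1% on the other sequences, and their median score was 1.11 against 0.49. Of the 32 combined clusters on U with a score of 2 or more, 31 were touched by neither replicate and 26 were narrower than 1301 bp. Off U, 30 clusters scored 2 or more, of which all 30 were touched by neither and 24 were narrower than 1301 bp. The form of these clusters was thus alike on and off U, but their share was not. They made up 6.45% of the combined clusters on U, 0.238% of those off U and 0.473% of the whole combined list. The Het scaffolds lay between U and the pooled value off U, with 10 of 771 clusters (1.30%).

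**Figure D3:**
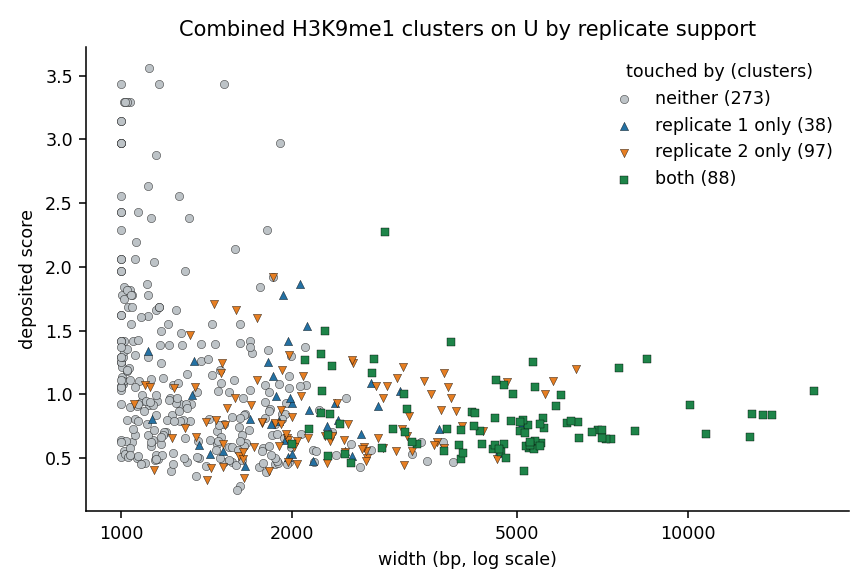
Deposited score (y axis) against width (x axis, bp, log scale) of the 496 combined clusters on U, 1 point per cluster, marked by which replicate lists touch it. Clusters touched by both replicates are mostly wide and score from about 0.5 to 1.5, while 31 of the 32 clusters scoring 2 or more are touched by neither and 26 are narrower than 1301 bp.

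The highest combined scores took few values. The 32 combined clusters on U at 2 or more held 16 distinct scores, and for 31 of them the ratio behind the score had a denominator of 5 or less. It was 1 for 18 of them. The 30 clusters of this height on the other sequences were alike, with 15 distinct scores, 28 denominators of 5 or less and 16 of 1. At the limit of the whole tail the scores were mostly distinct, with 53 values in 56 clusters of replicate 1, 81 in 84 of replicate 2 and 173 in 248 of the combined list. The median denominator was 13 in the tail of the combined list on U and 103 in the bulk. In replicate 1 these medians were 14 and 57, and in replicate 2 they were 23 and 96. Off U the tail medians were 63.5 in replicate 1, 115 in replicate 2 and 32 in the combined list, against 80, 98 and 151 in the bulk. The tail thus had the smaller median off U in replicate 1 and the combined list, but not in replicate 2. A ratio of small whole numbers is a property of the score, and how it arose from reads was not tested.

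The 5 highest scores on U in the combined list show this form. The highest cluster, U:7993155-7994277, was 1123 bp wide and scored 3.56, a ratio of 12 to 1 after division by the constant. The next, U:4345775-4346941 (1167 bp), U:7888472-7889990 (1519 bp) and U:8669966-8670966 (1001 bp), scored 3.43 each, a ratio of 11 to 1. The fifth, U:2053223-2054235 (1013 bp), scored 3.29, a ratio of 10 to 1. None of the 5 was touched by a cluster of either replicate.

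The highest clusters of single replicates were mostly private, on U as off U. Of the 50 highest of each whole list, 18 in replicate 1 (36.0%) and 12 in replicate 2 (24.0%) touched the other replicate. Those of the 50 that lay on U did so at 32.1% (9 of 28) and 24.3% (9 of 37), and they make up most of each 50. Those off U did so at 40.9% (9 of 22) and 23.1% (3 of 13). The 5 highest on U are named here. In replicate 1 the first was U:7490138-7491439 (1302 bp, score 3.43). It was followed by U:6119235-6120598 (score 2.67), U:3774592-3777160 (2.51), U:8489210-8491123 (2.39) and U:6854858-6856450 (2.37). Of these 5, U:3774592-3777160 alone touched replicate 2. Combined clusters covered from 76.0% to 100% of each of the 5, with combined scores from 1.34 to 2.28. In replicate 2 the first was U:9032145-9033576 (1432 bp, score 3.14), which touched neither the other replicate nor the combined list. Then came U:7423865-7425572 (2.78), U:5119239-5121183 (2.49), U:7197110-7198445 (2.29) and U:3774391-3777182 (2.13). Again only the last, at the same place as the third of replicate 1, touched the other replicate.

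That place was the strongest region of U on which the replicates met. The combined cluster U:3774396-3777317 was 2922 bp wide and scored 2.28. Replicate 1 covered 87.9% of it with a cluster scoring 2.51, and replicate 2 covered 95.4% with one scoring 2.13. It is the 1 combined cluster on U at 2 or more that either replicate touches.

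The next regions of which each replicate covered at least 50% scored lower. U:8484316-8486610 had nearly the same score throughout, 1.498 in the combined list, 1.51 in replicate 1 and 1.49 in replicate 2. U:5098244-5102060 scored 1.41 in the combined list, while its replicate scores were 1.09 and 1.93. U:7523609-7525719 scored 1.27, with 1.76 in replicate 1 and 1.17 in replicate 2. U:2137782-2140031 scored 1.32, with 1.12 and 1.42. The remaining 5 of the 10 highest were U:5082591-5084944, U:2774109-2781663, U:5277742-5280514, U:6261190-6265771 and U:2124848-2129581, with combined scores from 1.22 down to 1.07. The mean share covered by single replicates in the 10 ranged from 59.1% to 91.6%.

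The widest combined clusters on U were all touched by both replicates. The widest, U:1724126-1740857, spanned 16732 bp at a score of 1.03. Replicate 1 covered 27.1% of it with 2 clusters and replicate 2 covered 79.3% with 3. U:1842254-1856310 (14057 bp, score 0.84) was the most fully covered, at 77.5% and 92.5%. The others were U:3236394-3249987 (13594 bp, score 0.84), U:2293331-2306328 (12998 bp, 0.84) and U:1344448-1357309 (12862 bp, 0.67). All 5 lay between 1344448 and 3249987. The last of them scored below the limit of the combined tail (0.82), and the others lay above it, within the tail. All 5 scores were below the median of the combined tail of U (1.19).

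The replicates gave similar scores where single clusters met one to one. There were 72 such pairs on U, which took in 47.7% of replicate 1's U clusters and 35.0% of replicate 2's. Their scores correlated at Spearman's rho 0.74 and Pearson's r 0.78, against 0.52 and 0.56 over 2694 pairs on the other sequences. These describe pairs from the same 2 libraries, and the wider range of scores on U bears on them. The difference, replicate 2 minus replicate 1, had a median of 0.03 and an SD of 0.21 on U, and replicate 2 was higher in 39 of 72 pairs. On the other sequences the SD was 0.13. The centres of the pairs lay a median of 284.5 bp apart on U and 277.8 bp elsewhere.

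Cover was higher and scores were lower in the first of 2 equal parts of U than in the second. The first part, up to 5024518, held 97 of 151 clusters of replicate 1, 129 of 206 of replicate 2 and 260 of 496 of the combined list. Median scores were 0.80, 0.83 and 0.70 there, and 1.09, 1.15 and 1.02 in the second. Tail clusters made up 21.6%, 27.9% and 35.8% of the clusters of the first part, and 64.8%, 62.3% and 65.7% of the second. Spearman's rho of score with position was 0.42 over 151 clusters, 0.46 over 206 and 0.48 over 496, as a description of each list. Support was also lower in the second part: 76.3% and 51.9% of the clusters of replicates 1 and 2 touched the other in the first part, and 57.4% and 40.3% in the second. In the last of 4 equal parts, 5 of 14 and 5 of 22 did. The opposite order of cover and score did not hold at every step: from the second to the third of these 4 parts, cover went from 2.33% to 3.23% and from 4.38% to 5.30% while median scores went from 0.89 to 1.08 and from 0.95 to 1.05.

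In windows of 500 kb, the bases covered in both replicates were gathered in a few places. The window from 1000001 to 1500000 led, at 12.6% in replicate 1, 12.3% in replicate 2 and 9.52% in both. It was followed by 1500001 to 2000000 (9.08% and 14.6%, 6.83% in both) and 1 to 500000 (5.59% and 14.1%, 4.68% in both). These 3 of 20 windows held 47.8% of the bases covered in both. Between them lay 500001 to 1000000, covered at 0.673% and 1.37%. The windows from 4500001 to 5000000 and from 9500001 to 10000000 held no cluster of replicate 1, and replicate 2 covered 1.29% and 0.395% of them. In the third of the least shared windows, from 8500001 to 9000000, the replicates covered 2.10% and 1.51% but shared only 0.263%.

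**Figure D4:**
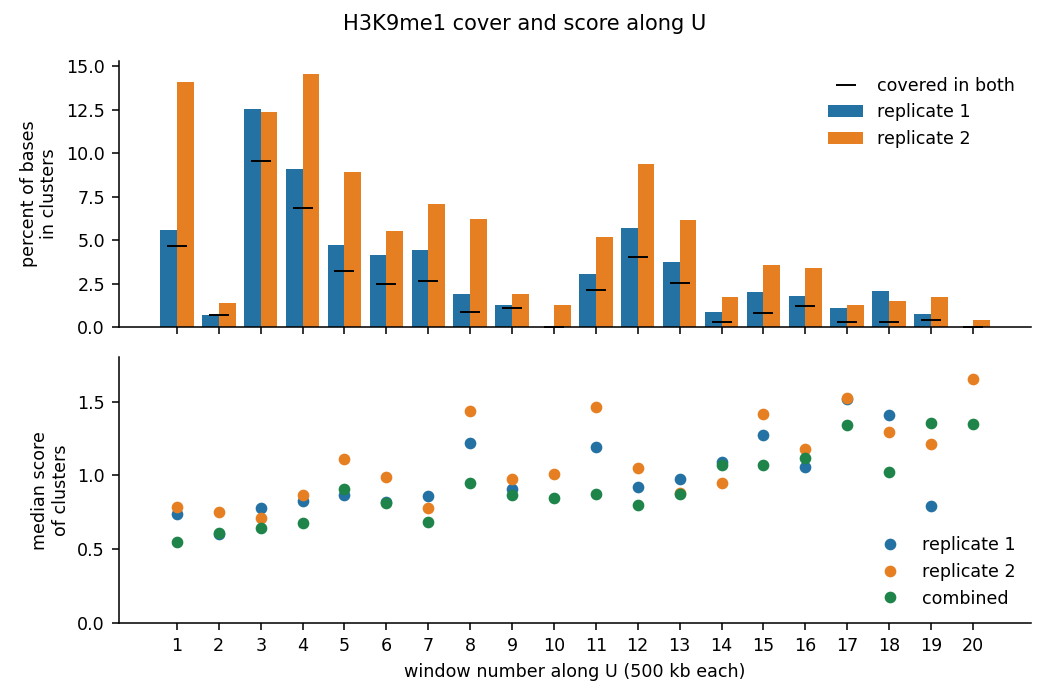
Percent of bases in clusters (upper panel) and median deposited score of the clusters (lower panel) in 20 windows of 500 kb along U (x axis, window number). Bars give each replicate and black dashes the bases covered in both, which peak at 9.52% in window 3, while median scores are lowest in the first windows and mostly over 1 from window 14 on.

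Clusters on U left long stretches empty. The variance of the cluster number per 100-kb window over its mean, a measure of clumping, was 2.59 and 2.71 on U, 2.53 and 2.47 on the other sequences and 2.50 and 2.74 on the Het scaffolds. In the combined list it was lower on U, at 1.87 against 2.19, so by this measure U did not stand apart. The mean number per window was unlike, at 1.51 and 2.06 on U and 4.11 and 4.52 on the other sequences. The 10 densest of 100 windows held 39.7% and 35.9% of U clusters. On the other sequences the 129 densest of 1292 windows held 26.3% and 25.4%. The part of the mean number in this was not tested. Of 100 windows of 100 kb, 53 held clusters of both replicates, 25 of neither, 22 of replicate 2 only and 0 of replicate 1 only. On the other sequences 4.02% of 1292 windows were empty in both replicates, and 43 held replicate 1 only. Those sequences hold more clusters per Mb, and the part of this in the empty windows was not tested. The combined list had 58 clusters in the 25 windows of U that were empty in both replicates. Their score had a median of 1.05 and their width one of 1180 bp. A replicate cluster touched 0 of these 58, which follows largely from the choice of empty windows and is no measure of support. The longest gap between 2 clusters ran from 4481659 to 5083184 in replicate 1 (601526 bp) and from 512840 to 1013596 in replicate 2 (500757 bp). The second longest such gap of replicate 1, from 510916 to 1075130, contained the latter. The end of U past the last cluster was longer still, at 958002 bp and 531009 bp.

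Close neighbours were less frequent on U, which also held fewer clusters per Mb. Of the U clusters, 78 of 151 in replicate 1 (51.7%) had another within 5 kb, against 58.4% of the whole list. In replicate 2 it was 99 of 206 (48.1%) against 58.5%, and in the combined list 303 of 496 (61.1%) against 80.4%. Set against the mean spacing, gaps on U were short in the replicates: the median gap was 0.215 and 0.273 of the length per cluster, against 0.370 and 0.390 on the other sequences and 0.275 and 0.272 on the Het scaffolds. In the combined list the order turned, with 0.399 on U and 0.327 on the other sequences. The longest chain of clusters no more than 5 kb apart held 5 clusters in replicate 1, in 2 places, from 1227776 to 1253201 and from 1348476 to 1371945. In replicate 2 it held 7, from 2098211 to 2139775, with a median score of 1.26. The first place of replicate 1 met the third chain of replicate 2 (1227306 to 1251277, 4 clusters), and the longest of replicate 2 met the third of the combined list (2098345 to 2142741, 9 clusters).

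**Figure D5:**
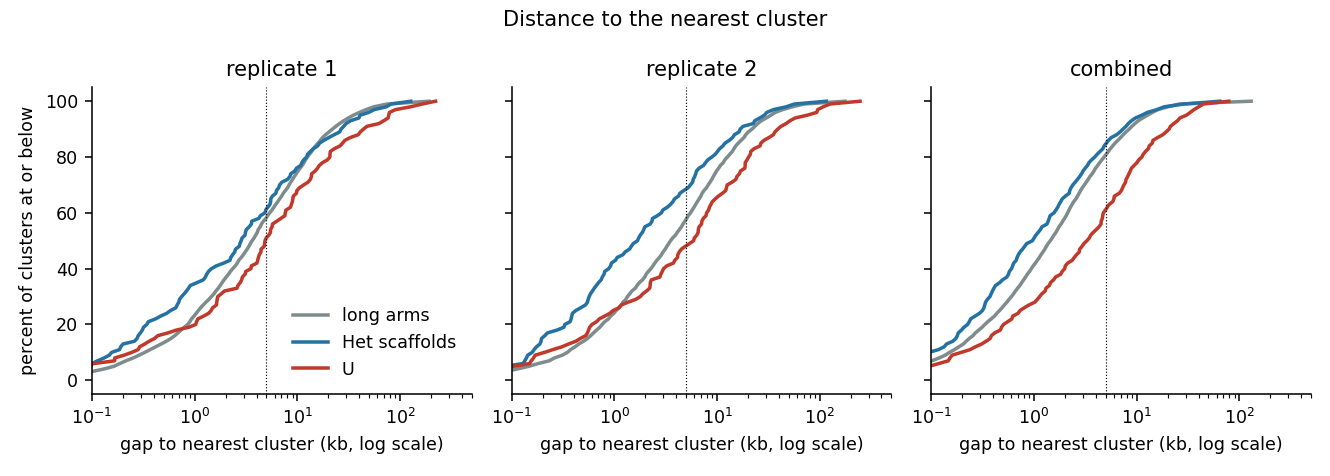
Cumulative share of clusters (percent, y axis) by the gap to the nearest other cluster (x axis, kb, log scale) on U, the Het scaffolds and the long arms, 1 panel per list, with a dotted line at 5 kb. U lies below the other curves there, at 51.7%, 48.1% and 61.1%.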

How the data were processed

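Per the submitters' processing notes, the aligner was Bowtie 0.12.7. The deposited files used are 3 lists of enriched regions, 1 per ChIP replicate and 1 for the replicate set, on FlyBase release 5, per the file headers. The score of each region is the authors' deposited value. For its scale, the caller, the threshold and the making of the combined list, the answer is: not given in the sources used here. The depth of the libraries is unknown.

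Cover, overlap, gaps and quantiles were computed with Python 3.11.15, numpy 2.4.6 and scipy 1.17.1, and figures with matplotlib 3.10.9. Interval functions were tested on simulated data with known answers. The high-score tail was the 95th percentile of each list, touching meant an overlap of at least 1 bp, and close meant a gap of at most 5 kb. The other sequences are the 12 besides U that hold clusters. Clusters that ran past a sequence end were cut there for cover.

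Named regions were the 10 highest-scoring combined clusters on U covered at least 50% by each replicate, the 5 highest and 5 widest combined clusters, the 5 highest of each replicate, and the 3 windows of 500 kb with most and fewest bases covered in both. The members and these rules were chosen with earlier results of these data known. The classes of equal score, the parts along U and the gap over spacing were added after the values were seen. Alternatives were score and width cuts, stricter overlap, other tail limits and gaps, and leaving out each replicate. No genome or annotation of release 5 was used here, so genes and sequence of the regions are not given.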

Additional observations from a re-analysis of the deposited data

How the results depend on the processing

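Of 34 alternative values of 9 results on U, 20 moved by no more than the spread between replicates and 0 changed sign. Only tail minus bulk could have changed sign, since the other results are shares, widths and positive scores. Of the 20 that stayed within the spread, 10 leave out a replicate of a mean of 2. That cannot move the value by more than the spread, so only the other 10 test anything. The other 14 moved further or, like the Jaccard index, have no replicate spread to be set against. The tail minus bulk difference in touch on U was -28.3 to -37.1 points under its 3 alternatives. Off U its direction depended on the limit. Among the 50 highest clusters of each list, 9 of 22 off U in replicate 1 (40.9%) and 3 of 13 in replicate 2 (23.1%) touched the other replicate. The remaining clusters off U did so at 66.5% and 58.0%, so at this limit the tail was the less supported off U too. Cover was 3.50% and 3.05% with only clusters of at least their list's median score or width. The share touching the other replicate fell to 39.0% with reciprocal overlap of 50%. It was then 45.0% in replicate 1 and 33.0% in replicate 2, against 48.1% and 43.8% on the other sequences. By this stricter rule U was below the other sequences in both replicates, unlike with 1 bp. The Jaccard index was 0.233 when only clusters scoring at least their list's median were kept and 0.345 when only those of at least median width were. The share of combined clusters touched by both replicates, 17.7%, became 13.1% and 24.5% under these same cuts and 10.9% when 50% had to be covered. Asking for 1 replicate alone gave 25.4% (replicate 1) and 37.3% (replicate 2), which is a looser demand. The high-score share was 45.8% at the 90th percentile and 18.3% for the 50 highest of each list, since the limit sets it. Close neighbours were 38.4% and 35.7% under the score and width cuts, which leave fewer clusters, and 32.2% and 66.6% with gaps of 2 kb and 10 kb. Touch between replicates, the Jaccard index and tail minus bulk need both replicates and have no value without one. No paired analysis was possible because no values of the input samples were used here. Unknown depth and unmeasured gaps and repeats of U limit every value of cover.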
